A study of Mus musculus with 12 samples.

Results

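The BCL2 family of apoptosis regulators was described here through 10 genes of PD-1+CD44+CD8+ T cells. These were the rows named *Bcl2*, *Bcl2l1*, *Bcl2l11*, *Mcl1*, *Bcl2a1b*, *Bcl2a1d*, *Bax*, *Bak1*, *Bbc3* and *Bad*, chosen by name from 18992 gene identifiers. All 10 had a row in each library. The study sorted these cells from female NZB/W F1 mice, a hybrid strain in which lupus nephritis arises spontaneously with age, to compare the spleen before disease with the spleen and kidney in advanced disease. The groups, called 12W spleen, 28W spleen and 28W kidney after the sample titles, differ in age (12 or 28 weeks) and organ. No group carried a transgene, a deletion or a drug treatment according to the labels, and all shared the same sort. For 28W spleen the title was used, although the age entry of these samples says 12 weeks. Each group has 4 labelled samples, which the tables pool with no map from cells to samples, so each group was 1 library. How many mice each library came from is not stated. Collagenase digestion is described for the kidney and not for the spleen, so organ and tissue preparation cannot be told apart.

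The 12W spleen library held 6894 cells, the 28W spleen library 6481 and the 28W kidney library 7135, with 29937384 to 34742303 unique molecular identifiers (UMIs, each a captured transcript) per library. The authors grouped the cells of each library into 10, 11 and 12 clusters, whose numbers are not matched across libraries. *Cd8a* was at 488 to 738 UMIs per 1000000 (counts per 1000000, CPM) in the 3 libraries and *Cd4* at 0.345 to 3.94 CPM. *Pdcd1*, the gene for PD-1, was at 36.6 CPM in 12W spleen, 34.7 CPM in 28W spleen and 115 CPM in 28W kidney. Some clusters went against the sort. The 6 B cell markers summed to 2936 CPM in 12W spleen cluster 3 and 23984 CPM in 28W spleen cluster 10, against cluster medians of 73.4 and 69.2 CPM in these libraries. They summed to 12874 CPM in cluster 8 and 33512 CPM in cluster 12 of 28W kidney, against a median of 85.2 CPM, and were also raised in kidney clusters 2, 7 and 11 and in 28W spleen cluster 8. In 28W kidney cluster 12 only 4 of the 6 B cell markers were detected. All 6 myeloid markers were detected there and summed to 22953 CPM, against a cluster median of 220 CPM. Myeloid markers were also raised in 12W spleen cluster 3 and 28W spleen clusters 8 and 10. Erythroid markers reached 37158 CPM in 12W spleen cluster 3 and 40824 CPM in 28W spleen cluster 8, and kidney tubule markers 4789.7 CPM in 28W kidney cluster 7 and 556 CPM in cluster 2. Pairs of libraries shared 52 to 66 cell barcodes.

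Proteins of this family control whether the outer membrane of the mitochondrion is breached, the step that commits many cells to apoptosis. BCL2, BCL-XL, MCL1 and A1 hold the membrane intact, BAX and BAK form the pore, and the BH3-only proteins BIM, PUMA and BAD bind the protective members. In CD8+ T cells BIM is known for the contraction of effector cells after an immune response, while BCL2 supports long-lived memory cells downstream of interleukin-7.

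The genes lie on 7 chromosomes in GRCm38. *Bcl2* spans chr1:106538178-106714274, *Bcl2l1* chr2:152780668-152831728, *Bcl2l11* chr2:128126038-128162547, *Mcl1* chr3:95658788-95663176, *Bax* chr7:45461697-45466898, *Bbc3* chr7:16308393-16318205, *Bak1* chr17:27019810-27029009 and *Bad* chr19:6941861-6951899. *Bcl2a1b* at chr9:89199209-89207827 and *Bcl2a1d* at chr9:88723285-88731914 are copies of the gene for A1, and a further copy, *Bcl2a1a*, lies at chr9:88956900-88962419. Their transcripts are so alike that reads can be split between copies. The stretch shown was chosen as the first 60 coding bases with the most differing positions, 6 of the 12 in all. It fell at the start of the coding sequence, toward the end of the transcript that a 5′ library reads. The lines give coding bases 1 to 60 of each copy from GENCODE M21, with capitals at the 6 positions where the copies differ.
Bcl2a1a: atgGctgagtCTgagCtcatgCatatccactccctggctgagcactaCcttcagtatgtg
Bcl2a1b: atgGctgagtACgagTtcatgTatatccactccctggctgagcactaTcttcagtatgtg
Bcl2a1d: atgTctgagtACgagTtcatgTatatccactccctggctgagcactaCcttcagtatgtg
Over the 516 coding bases, *Bcl2a1b* and *Bcl2a1d* differed at 6 positions, *Bcl2a1a* and *Bcl2a1b* at 11, and *Bcl2a1a* and *Bcl2a1d* at 7. The split of counts between copies is therefore uncertain, and their sum is given beside the single copies. *Bak1* overlaps *Ggnbp1*, *Bad* overlaps *Gpr137*, *Bcl2a1d* overlaps Gm10634 and *Bcl2* overlaps D630008O14Rik on the other strand. Whether the counting used strand is not stated, so reads of these pairs were not told apart here. On the same strand *Bax* overlaps Gm45808, *Bcl2a1b* overlaps Gm29094, and *Bcl2* overlaps Mir3473f and Gm37053. Strand could not separate reads of those overlaps.

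FOXO transcription factors are known activators of the genes for BIM and PUMA, so the letters GTAAACA were searched on both strands of RefSeq promoters (GRCm38.p6), from 250 bases before to 50 bases after each start. The motif was in 2 of the 10 members, *Bcl2l11* and *Bbc3*, and in 4.05% of 27025 genes. The windows are shown because these were the members that held the motif. *Bcl2l11*, *Bbc3*, *Bcl2* and *Bax* were lower in 28W spleen than in 12W spleen. The windows of *Bcl2* and *Bax* did not hold these letters. The part of the motif in these levels was not tested. Capitals mark the motif, which lay 227 bases before a start of *Bcl2l11* on the strand of the gene, and 167 bases before a start of *Bbc3* on the other strand. Each of these genes has other RefSeq starts, whose windows did not hold the motif. For *Bbc3* the window shown lies inside the gene span given above.
Bcl2l11, chr2:128125791-128125837, plus strand: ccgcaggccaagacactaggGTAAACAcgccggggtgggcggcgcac
Bbc3, chr7:16310074-16310120, plus strand: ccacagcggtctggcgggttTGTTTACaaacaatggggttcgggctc
The STAT motif TTCNNNGAA was in 0 of 10 members against 9.55% of genes. A loose kappa B motif was in 9 of 10 members and in 53.5% of genes. These matches are descriptions of the letters in these windows.

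The first comparison asked how the family differed between the spleen in advanced disease and before disease. BIM transcripts were lower and MCL1 transcripts higher in the older spleen. *Bcl2l11* was at 33.4 CPM in 12W spleen and 20.5 CPM in 28W spleen, a log2 ratio of -0.71 (95% interval -0.85 to -0.57). *Mcl1* was at 84.7 and 112 CPM, a log2 ratio of 0.41 (0.34 to 0.48). *Bbc3*, which encodes PUMA, was at 17.3 and 13.5 CPM with a log2 ratio of -0.36 (-0.54 to -0.18), and *Bcl2* was at 92.5 and 74.7 CPM with a log2 ratio of -0.31 (-0.38 to -0.23). In sums over a library, fewer cells of a type and less RNA per cell cannot be told apart. Both A1 copies had a log2 ratio of 0.28, with intervals of 0.21 to 0.35 for *Bcl2a1b* and 0.17 to 0.39 for *Bcl2a1d*. *Bax* had a log2 ratio of -0.23 (-0.28 to -0.17). The intervals of *Bcl2l1* (-0.50 to 0.03), *Bak1* (-0.08 to 0.12) and *Bad* (-0.19 to 0.06) included 0.

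With a line at 1.5-fold, *Bcl2l11* was lower, 0 members were higher and 9 lay between. All 10 members passed the minimum of 5 CPM in either library. Of 8919 genes that passed it, 4.09% were at least 1.5-fold lower and 4.68% at least 1.5-fold higher. The median log2 ratio was -0.14 over the members and -0.10 over all genes. With 1 library per group no test between groups was possible, and intervals cover counting error only, not the spread between mice. *Bcl2l11* stayed past 1.5-fold when any 1 of the 21 clusters of both libraries was left out (log2 ratio -0.88 to -0.59), and fell short of it with a pseudocount of 10 CPM (-0.51) or equal weight for each cluster (-0.56).

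**Figure D1:**
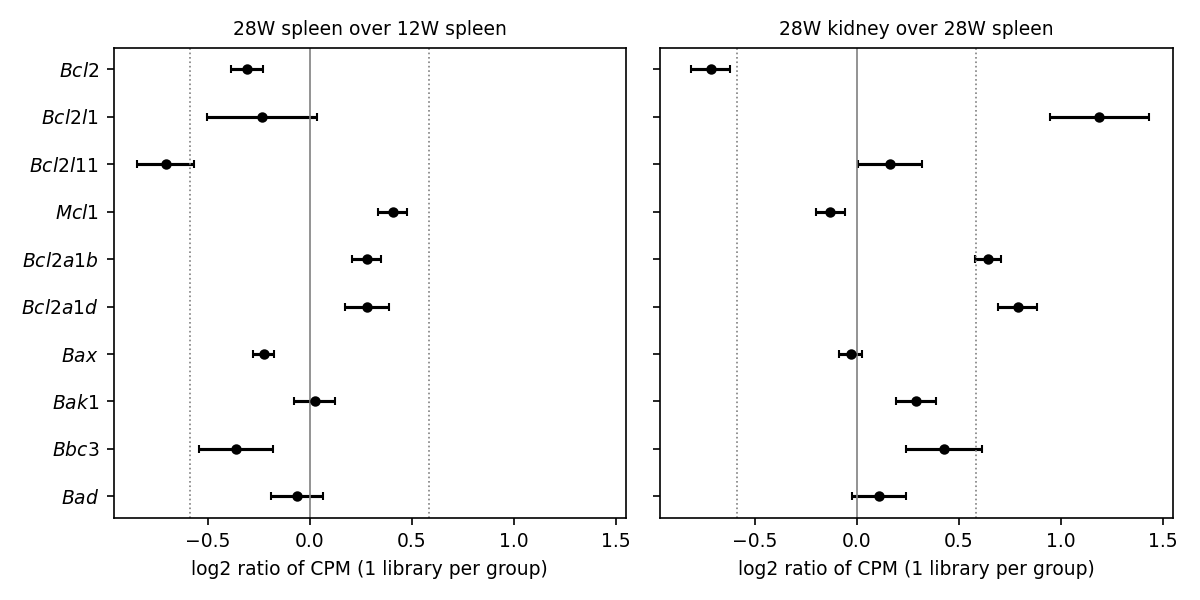
Log2 ratio of CPM for each of the 10 genes, with 28W spleen over 12W spleen on the left and 28W kidney over 28W spleen on the right. Points are the ratio of 1 library to another, bars are 95% counting intervals, and dotted lines mark 1.5-fold. On the left *Bcl2l11* lies past the lower line, and on the right *Bcl2* lies past the lower line and *Bcl2l1*, *Bcl2a1b* and *Bcl2a1d* past the upper.

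The second comparison set the kidney against the spleen of the same age. Transcripts of BCL-XL and A1 were higher in the kidney and those of BCL2 lower. *Bcl2l1* was at 6.46 CPM in 28W spleen and 14.7 CPM in 28W kidney, 2.28-fold higher (1.93 to 2.70). *Bcl2a1b* was at 104 and 162 CPM, 1.56-fold higher, and *Bcl2a1d* at 46.9 and 80.9 CPM, 1.73-fold higher. *Bcl2* was at 74.7 and 45.5 CPM, a log2 ratio of -0.72 (-0.81 to -0.62). *Bbc3* had a log2 ratio of 0.43 (0.24 to 0.61) and *Bak1* of 0.29 (0.19 to 0.39). The intervals of *Bax* (-0.09 to 0.03) and *Bad* (-0.02 to 0.24) included 0, while *Bcl2l11* (0.16, interval 0.01 to 0.32) and *Mcl1* (-0.13, interval -0.20 to -0.06) lay near 0.

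Thus 3 of 10 members were at least 1.5-fold higher and 1 was at least 1.5-fold lower, against 13.3% and 4.92% of 9274 genes. The 3 include *Bcl2a1b* and *Bcl2a1d*, copies that can share reads, so they are not separate results in this count. The median log2 ratio was 0.23 over the members and 0.08 over all genes. The lower *Bcl2* rested in part on 28W kidney cluster 11, without which its log2 ratio was -0.56, short of 1.5-fold. It was -0.51 without the clusters with raised B cell, myeloid or tubule markers, which include cluster 11, and -0.47 with equal weight for each cluster. Cluster 11 passed the line with B cell markers of 672 CPM, while its T cell markers, 5387 CPM, lay near the cluster median of 5606 CPM. Its proliferation markers summed to 11692 CPM, and their part in the result was not tested. The setting kept 28W spleen cluster 6, with proliferation markers of 4642 CPM, so it removed such cells from the kidney only. *Bcl2l1* stayed past 1.5-fold when any 1 of the 23 clusters of both libraries was left out (log2 ratio 1.04 to 1.29). *Bcl2a1b* fell short of it without 28W spleen cluster 3 (0.53) or 28W kidney cluster 8 (0.58), and with the total taken without mitochondrial, ribosomal protein and receptor segment genes (0.48). The comparisons share the 28W spleen library, so their ratios are not independent of each other.

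*Bcl2* was the member with the lowest kidney level relative to spleen, and its level differed widely between clusters. In 12W spleen its clusters ran from 34.3 CPM in cluster 7 to 214 CPM in cluster 8, with a median of 98.4 CPM. In 28W spleen they ran from 41.3 CPM in cluster 6 to 97.8 CPM in cluster 1, and all 11 lay below the 12W spleen cluster median. The interval of cluster 1, 88.8 to 107 CPM, included that median, and the share of all genes with such a count was not taken. In 28W kidney the *Bcl2* levels ran from 12.2 CPM in cluster 11 (50 UMIs, interval 9.06 to 16.1) to 86.5 CPM in cluster 10. Of these 12 clusters, 8 lay below the 28W spleen cluster median of 77.1 CPM and 4 above it, so lower *Bcl2* was not shared by all kidney clusters. The lowest clusters of the 28W libraries were those with the highest proliferation markers, at 4642 CPM in spleen and 11692 CPM in kidney. In 12W spleen the cluster with the highest proliferation markers, cluster 10 at 8483 CPM, had 60.1 CPM of *Bcl2*, the second lowest level. The highest, 12W spleen cluster 8, rested on 61 UMIs. That cluster had 928 UMIs per cell and 8.98% of its UMIs from mitochondrial genes, against a cluster median of 1.12%, and also had the highest memory markers (3307 CPM). The part of RNA quality in its levels was not tested.

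*Bcl2l1*, the gene for BCL-XL, was sparse in the spleen and higher in nearly all kidney clusters. The tables do not separate its long and short isoforms, of which the short form is known to promote death. It was at 7.60 CPM (264 UMIs) in 12W spleen, 6.46 CPM (207 UMIs) in 28W spleen and 14.7 CPM (441 UMIs) in 28W kidney. The intervals of the spleen levels, 6.71 to 8.57 CPM and 5.61 to 7.41 CPM, overlapped, and the kidney interval of 13.4 to 16.2 CPM lay above both. In the kidney, 11 of 12 clusters lay above the 28W spleen cluster median of 6.31 CPM. The exception was cluster 8, with high B cell markers, at 3.93 CPM. For this count against a median, the share of all genes was not taken. Among clusters without raised markers of other cells or low UMIs, the 7 of the kidney lay between 11.6 and 29.7 CPM and the 8 of the 28W spleen between 2.49 and 8.85 CPM, without overlap. Of the 9274 genes that passed the minimum, 1.14% likewise had every such kidney cluster above every such 28W spleen cluster. Clusters of a library are not replicates. The highest single level was 41.7 CPM in 28W spleen cluster 8, from 16 UMIs, a cluster in which the erythroid markers summed to 40824 CPM.

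*Mcl1* encodes a short-lived protector that T cells need at most stages. It was at 84.7 CPM in 12W spleen, 112 CPM in 28W spleen and 103 CPM in 28W kidney. All 11 clusters of 28W spleen lay above the 12W spleen cluster median of 80.6 CPM. How many of all genes did likewise was not counted. Cluster levels of *Mcl1* ran from 54.4 to 158 CPM in 12W spleen, from 86.0 to 148 CPM in 28W spleen and from 53.0 to 183 CPM in 28W kidney. The lowest levels in 12W spleen and 28W kidney were in clusters 10 and 11, which had the highest proliferation markers of their libraries.

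The A1 genes, known to be induced by antigen receptor and NF-kappa B signals, were lowest in 12W spleen and highest in 28W kidney. The sum of *Bcl2a1a*, *Bcl2a1b* and *Bcl2a1d* was 137 CPM in 12W spleen, 172 CPM in 28W spleen and 298 CPM in 28W kidney. The sum was 1.25-fold higher with age (1.20 to 1.30) and 1.73-fold higher in the kidney (1.68 to 1.79). Of the *Bcl2a1b* and *Bcl2a1d* UMIs, *Bcl2a1b* took 69.0%, 68.9% and 66.7% in the 3 libraries. By cluster this share was lowest in 28W spleen cluster 10 (51.8%, interval 45.8 to 57.8) and 28W kidney cluster 12 (54.9%, interval 50.7 to 59.0). Those clusters also had the highest *Bcl2a1d* of their libraries, 195 and 248 CPM, and the highest B cell and myeloid markers. In the other 31 clusters the share lay between 63.2% and 78.2%.

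A single cluster held much of the A1 signal of the young spleen. Cluster 7 of 12W spleen had 5.40% of the cells and 14.4% of the UMIs, but 36.3% of *Bcl2a1b* UMIs and 40.6% of *Bcl2a1d* UMIs. It had *Bcl2a1b* at 217 CPM, *Bcl2a1d* at 109 CPM, *Bax* at 379.6 CPM and *Bcl2l1* at 16.0 CPM, the highest of each in that library. It also had the lowest *Bcl2* (34.3 CPM) and the lowest *Bbc3* (3.21 CPM). Its cells carried 13406 UMIs each and its T cell markers summed to 2885 CPM, the lowest of the 12W spleen clusters. Without it, the age log2 ratios became 0.70 for *Bcl2a1b*, 0.81 for *Bcl2a1d*, 0.01 for *Bax* and 0.06 for *Bcl2l1*. In 28W spleen, cluster 6 had 8.15% of the cells and 20.1% of the UMIs, but 32.4% of *Bcl2a1d* and 25.1% of *Bcl2a1b* UMIs. Leaving out that cluster instead gave an age log2 ratio of 0.04 for *Bcl2a1d*. It was 0.15 without the clusters with raised B cell, myeloid or kidney tubule markers. For *Bcl2a1b* the lowest value with 1 cluster left out was 0.16, without 12W spleen cluster 1.

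**Figure D2:**
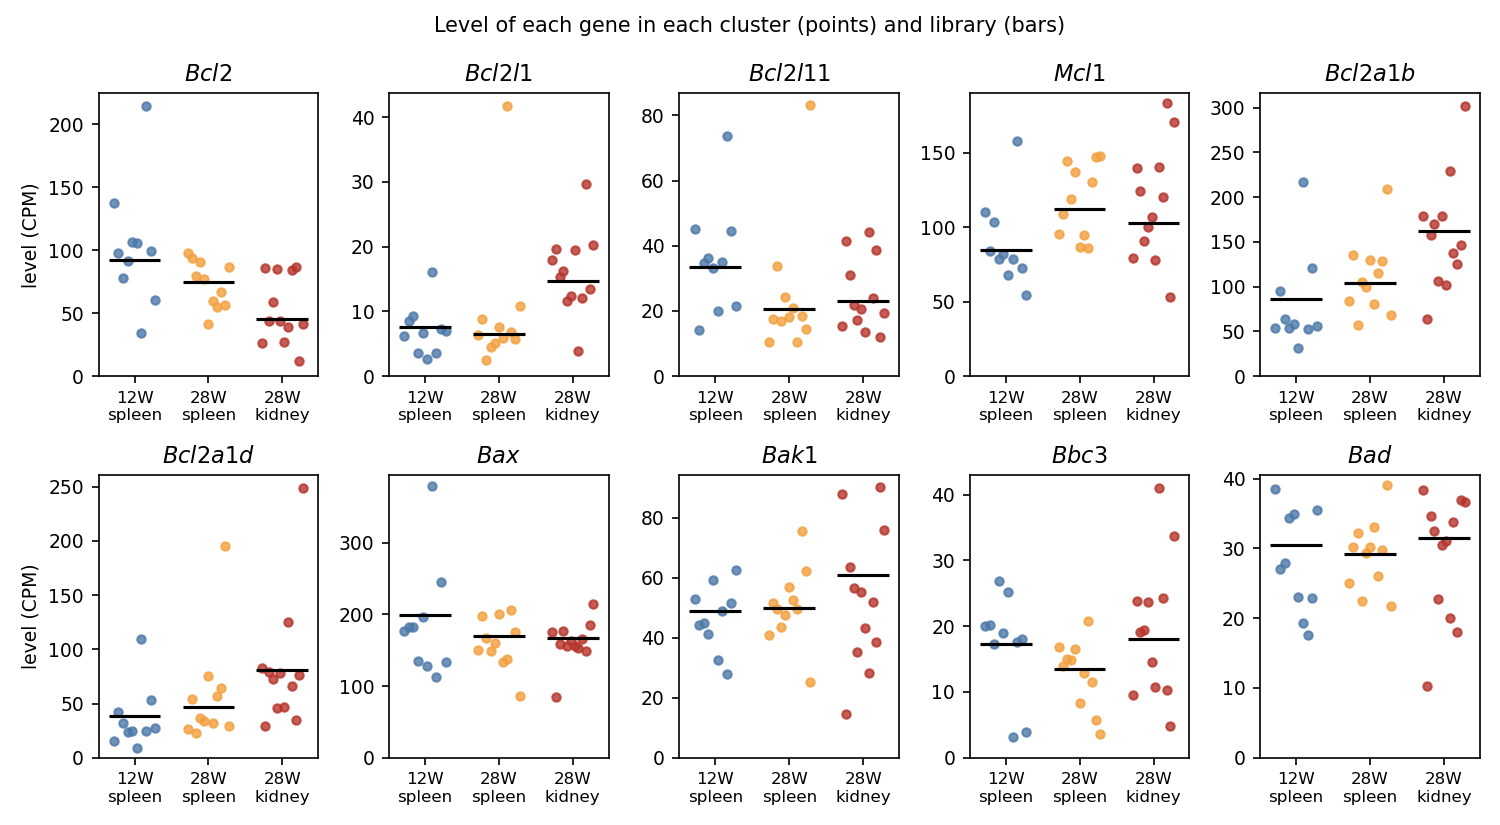
Level in CPM of each gene in each of the 33 clusters, by library, with axes that start at 0 and differ between genes. Points are clusters in number order from left to right and black bars are the whole library. *Bcl2l1* points of the kidney sit above most spleen points, while *Bcl2* points shift down from 12W spleen to 28W kidney.

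The pore formers differed less between libraries. *Bax* was at 199 CPM in 12W spleen, 170.3 CPM in 28W spleen and 167 CPM in 28W kidney. *Bak1* was at 49.1, 49.9 and 61.0 CPM in the same order. In the 7 kidney clusters without raised markers of other cells or low UMIs, *Bax* lay between 149 and 177 CPM, a 1.19-fold range, while *Bak1* lay between 35.2 and 87.9 CPM, a 2.50-fold range. *Bak1* was highest in the cluster with the highest proliferation markers in 12W spleen (62.7 CPM, cluster 10) and in 28W kidney (90.4 CPM, cluster 11). In 28W spleen its highest level was 75.5 CPM in cluster 9, from 33 UMIs. Both genes were lowest in low-UMI clusters. *Bak1* was at 28.1 CPM in 12W spleen cluster 8, 25.3 CPM in 28W spleen cluster 11 and 14.5 CPM in 28W kidney cluster 2, where 8.98%, 6.64% and 10.8% of UMIs were mitochondrial.

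The BH3-only genes each had their own pattern. *Bcl2l11* was at 33.4 CPM in 12W spleen, 20.5 CPM in 28W spleen and 22.9 CPM in 28W kidney, and 10 of 11 clusters of 28W spleen lay below the 12W spleen cluster median of 34.8 CPM. The exception, 28W spleen cluster 11 at 83.1 CPM, rested on 23 UMIs. How many of all genes had such a count was not determined. The lowest *Bcl2l11* of 12W spleen, 14.2 CPM, was in cluster 2, where the cytotoxic markers were highest at 9450 CPM. The 28W libraries did not share this. Their clusters with the highest cytotoxic markers, spleen cluster 9 and kidney cluster 6, had *Bcl2l11* at 18.3 and 20.7 CPM. The cluster medians there were 18.2 and 21.2 CPM. In 28W kidney *Bcl2l11* was highest at 44.2 CPM in cluster 8, whose B cell markers were raised.

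*Bbc3* was at 17.3 CPM in 12W spleen, 13.5 CPM in 28W spleen and 18.1 CPM in 28W kidney, and below the cluster median in the cluster with the highest proliferation markers of each library. It was at 3.98 CPM in 12W spleen cluster 10, 8.38 CPM in 28W spleen cluster 6 and 4.89 CPM in 28W kidney cluster 11, from 12, 54 and 20 UMIs. The lowest level in 12W spleen, 3.21 CPM, was in cluster 7. Its highest level, 41.0 CPM, was in 28W kidney cluster 8. *Bad*, whose product is held inactive by growth factor signals, had the smallest spread over the libraries of the 10 members, at 30.5, 29.1 and 31.4 CPM with intervals that overlapped between all 3 libraries. Among 28W spleen clusters it lay between 21.7 and 39.0 CPM.

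**Figure D3:**
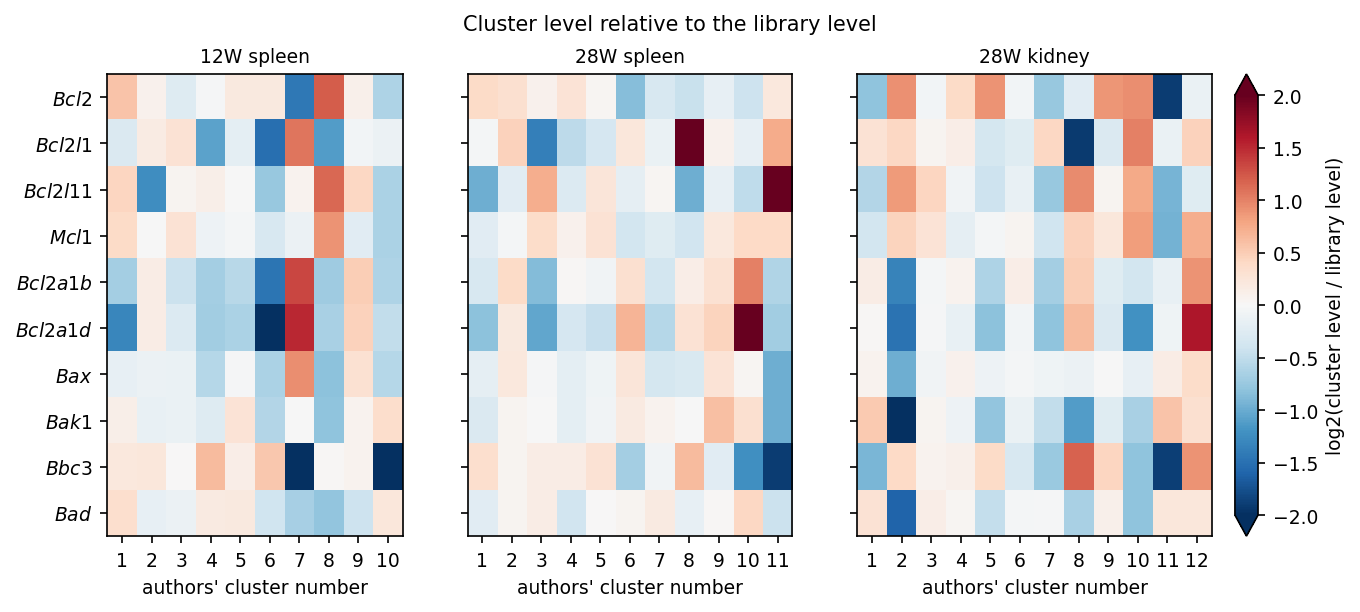
Level of each gene in each cluster as log2 of the cluster level over its library level, on a colour scale from -2 to 2, with values past either end drawn in the end colour. Columns are the authors' cluster numbers within each library. In 12W spleen cluster 7 the *Bcl2a1b*, *Bcl2a1d*, *Bax* and *Bcl2l1* cells are red and the *Bcl2* and *Bbc3* cells blue.

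BIM acts by binding BCL2 and its relatives, so *Bcl2l11* UMIs were counted per 100 *Bcl2* UMIs. This quantity depends on how well each transcript is captured and is not a ratio of molecules. It was 36.1 in 12W spleen (33.7 to 38.6), 27.4 in 28W spleen (25.1 to 29.9) and 50.3 in 28W kidney (45.8 to 55.2). These whole-library intervals did not overlap. Without clusters with raised markers of other cells the values were 35.6, 27.5 and 41.7. No intervals were taken for these, so whether kidney and 12W spleen then overlapped was not determined. The kidney value fell below its whole-library interval. Kidney clusters 8 and 11, the highest of that library, were among those left out, while 28W spleen cluster 6, with the highest proliferation markers there, was kept. By cluster it ran from 14.5 in cluster 2 to 102 in cluster 7 in 12W spleen. In 28W spleen it ran from 10.6 in cluster 1 to 95.8 in cluster 11, the latter from 23 and 24 UMIs. In 28W kidney it ran from 20.2 in cluster 5 to 114 in cluster 8, with 98.0 in cluster 11. In 12W spleen cluster 7 and 28W kidney cluster 11 the *Bcl2* level was the lowest of the library, while in 28W kidney cluster 8 the *Bcl2l11* level was the highest.

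**Figure D4:**
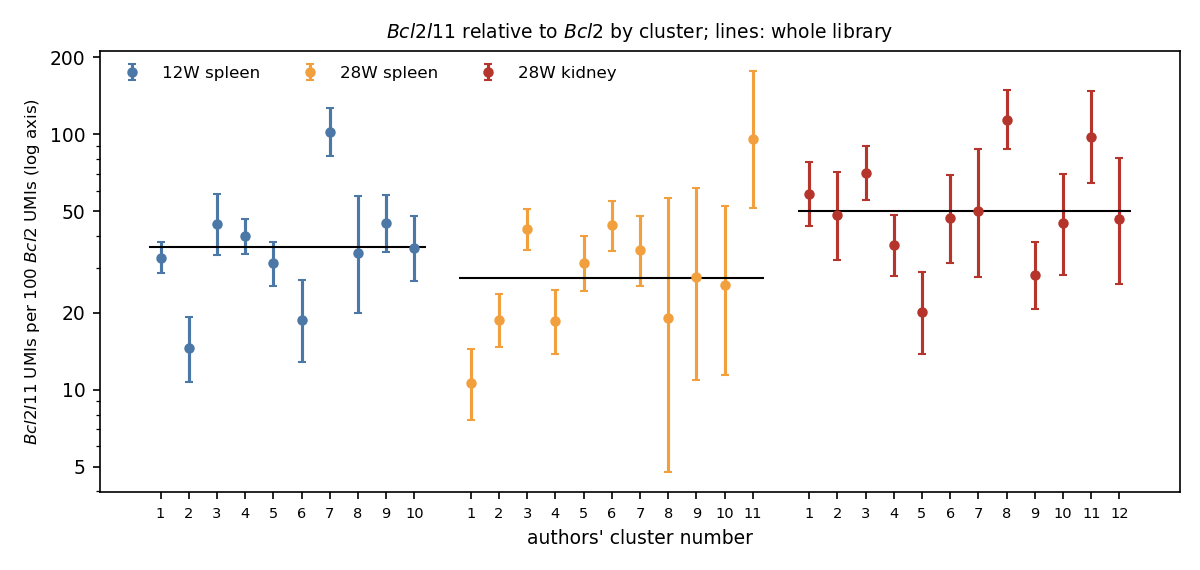
*Bcl2l11* UMIs per 100 *Bcl2* UMIs in each cluster on a log axis, with 95% counting intervals, and black lines at the whole-library values of 36.1, 27.4 and 50.3. Cluster 7 of 12W spleen, cluster 11 of 28W spleen and clusters 8 and 11 of 28W kidney lie highest in their libraries.

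Over the 33 clusters, levels were compared as log2(CPM + 10) centred within each library. The clusters of a library share its preparation and differ in depth, so correlations are descriptions only. *Bcl2a1b* and *Bcl2a1d*, which can share reads, had the highest Pearson r of any pair of members (0.94). *Bak1* and *Bad* followed at 0.83, and *Bcl2a1b* and *Bax* at 0.78. *Bcl2l11* and *Mcl1* had an r of 0.66 and *Bcl2* and *Mcl1* of 0.62, while *Bcl2* and *Bak1* had the lowest r of all pairs at -0.56. With the summed proliferation markers, *Bcl2* had an r of -0.64 and *Bbc3* of -0.56. With the memory markers, *Bcl2l11* had 0.63 and *Bcl2* 0.54. Markers of other cells gave values of like size. *Bcl2a1d* had an r of 0.57 with the myeloid, 0.49 with the B cell, -0.19 with the kidney tubule and -0.56 with the T cell markers. *Bcl2l1* had 0.50 with the erythroid markers.

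The genes most like each member in this measure were taken from about 4750 genes with at least 20 CPM in each library. For *Bcl2* they were *Card6*, *Pik3ip1* and *Kbtbd11* (r 0.84, 0.84 and 0.83). For *Bcl2l11* they were *Foxp1*, *Ikzf2* and *Chd1* (0.87, 0.86 and 0.86), and for *Mcl1* *Stat6*, *Ncoa3* and *Tmem55b* (0.86, 0.85 and 0.82). For *Bax* they were *Fcf1*, *Clns1a* and *Eif4e* (0.89, 0.88 and 0.87), and for *Bak1* *Arpc2*, *Arpc4* and *Ywhab* (0.95, 0.94 and 0.91). For *Bad* they were *Naxe*, *Slc25a11* and *Clic1*, each at 0.87. Besides the other copy, *Bcl2a1b* was most like *Eif1a* and *Nifk* (0.79 and 0.78) and *Bcl2a1d* most like *Snx5* and *Nadk* (0.86 and 0.84). The sparser genes had lower values, with *Rflnb*, *Maf1* and *Tcp11l2* for *Bbc3* (0.72, 0.69 and 0.68) and 2310011J03Rik, *S100a9* and *Jmjd6* for *Bcl2l1* (0.63, 0.59 and 0.59).

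Beyond the members, 60 genes of apoptosis and its regulation were examined, of which 59 had a row. With age, 8 of the 49 that passed the minimum were at least 1.5-fold higher and 0 lower, with a median log2 ratio of 0.01. Over all 8919 genes these shares were 4.68% and 4.09% and the median was -0.10. *Pmaip1*, the gene for the BH3-only protein NOXA that binds MCL1, was at 2.13 CPM in 12W spleen and 10.3 CPM in 28W spleen, 4.82-fold higher. *Casp1*, an inflammatory caspase, was 4.35-fold higher and *Fasl*, a death ligand of killer cells, 2.40-fold higher. *Bcl2a1a* was 1.64-fold higher. The interleukin-7 receptor gene *Il7r* was at 213 and 348 CPM, 1.63-fold higher, and the survival kinase genes *Pim1* and *Pim2* were 1.82-fold and 1.57-fold higher.

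In the kidney, 10 of 50 were at least 1.5-fold higher than in 28W spleen and 4 lower, with a median log2 ratio of 0.06. Over all 9274 genes these shares were 13.3% and 4.92% and the median was 0.08, and no test was made of the list. *Fasl* was at 16.4 and 72.7 CPM, 4.43-fold higher. *Tnfsf10*, the gene for TRAIL, was 2.89-fold, *Bcl2a1a* 2.62-fold, *Birc5* 2.33-fold, *Pim1* 1.95-fold, *Casp1* 1.78-fold, *Tnfrsf1a* 1.73-fold and *Il15ra* 1.66-fold higher. *Birc5* encodes survivin, which also acts in cell division. The lower genes were all upstream regulators. *Il7r* was at 161 CPM in the kidney, 0.464 of the 28W spleen level. *Pim2* was at 0.365 of it, *Stat5a* at 0.614 and *Stat5b*, which with *Stat5a* carries interleukin-7 and interleukin-2 signals, at 0.615.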

How the data were processed

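Single-cell RNA sequencing libraries were made with the Chromium 5′ v2 kit. For each library the authors deposited cluster assignments and a table of mean UMI counts per gene and cluster, a depth-scaled signal divided by size factors. Clusters and scaling were made separately in each library. The submitters' processing notes name Cell Ranger 2.1.1 and R 3.6.1 with GRCm38. The study's methods name a vdj pipeline for gene quantification. Cell filters and doublet treatment are not given in the sources used here, and no doublet caller could be run on cluster means. The authors' log2 fold changes of each cluster against its library and their adjusted p-values were not used.

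Every deposited value was a whole multiple of the value of 1 UMI in its column, and dividing by it gave whole UMIs for 100% of values within 0.001. UMIs were summed over clusters and divided by the library total (CPM). Ratios took no pseudocount. Levels have exact Poisson and ratios exact conditional binomial 95% intervals, which cover counting error only. With 3 counts as the floor, 0 UMIs in a library allow up to 0.0864 to 0.100 CPM. Genes needed 5 CPM in either library, and the line was set at 1.5-fold. A cluster was said to have raised markers at 5 times the median cluster and at least 500 CPM, and low UMIs under 0.333 of the library's mean UMIs per cell. Genes besides the members were named from a list of 60 where they were at least 1.5-fold apart with at least 10 CPM, and 1 gene that met this rule is not reported here. The members and lists were chosen with earlier results of these data known. Of 18992 identifiers, 18960 were found in GENCODE M21. The self-written code, in Python 3.11.15 with numpy 2.4.6, scipy 1.17.1, pandas 2.3.3 and Biopython 1.88, was tested on simulated data.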

Additional observations from a re-analysis of the deposited data

How the results depend on the processing

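Of 741 values under other settings, 618 stayed within the counting interval or within 1.5 times the count, and 123 moved, of which 0 went from a call to the opposite direction. Dropping the minimum level could not change a count, since all 10 members passed it. Leaving out erythroid clusters as well repeated the setting before it. These totals and the counts out of 10 planned settings below therefore overstate the number of separate checks. For age, 0 members were lower at a line of 2-fold and with a pseudocount of 10 CPM. With equal weight for each cluster the age median was 0.079, with 1 higher and 0 lower. For organ, at 2-fold 1 member was higher and 0 lower. The organ median was 0.067 when mitochondrial, ribosomal protein and receptor segment genes were left out of the total and 0.057 with equal cluster weight. The count of lower members in the kidney was 0 with equal weight, with clusters weighted by cells, without clusters with raised B cell, myeloid or tubule markers (leaving out erythroid ones removed no further cluster), and without clusters with raised proliferation markers, which in these libraries dropped 28W kidney cluster 11 but no 28W spleen cluster. The lower *Bcl2* in the kidney was past 1.5-fold in 5 of 10 planned settings (log2 ratio -0.87 to -0.47), *Bcl2a1b* in 6 of 10, *Bcl2a1d* in 9 of 10 and *Bcl2l1* in 10 of 10. The lower *Bcl2l11* with age was past it in 8 of 10. *Bcl2l1* and *Bad* with age, and *Bax* and *Bad* in the kidney, changed sign under some planned setting without passing the line in either direction. Settings that left out single clusters were chosen after seeing the data. Scaling by the median gene ratio moved the median of all genes to 0.00 in both comparisons. No paired analysis was possible because the tables pool the labelled samples, and for the same reason no replicate could be left out. Depth limits *Bcl2l1* and *Bbc3* most, with down to 1 UMI in a cluster.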
